A study of Mus musculus with 32 samples.

Results

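The aryl hydrocarbon receptor genes described here are Ahr, Ahrr, Arnt, Cyp1a1, Cyp1b1 and Tiparp, chosen by their gene symbol in the deposited tables: 6 of the 35275 genes that were counted. Their transcripts were read by sequencing poly(A) RNA of whole lung tissue from C57B/6 mice. In 32 libraries, these genes showed no difference between groups that passed the test, while Cyp1a1 varied 213-fold from library to library and stood far above the rest in 2 of them. Tiparp lay higher in the second experiment than in the first, and Ahr and Cyp1a1 had the lower median there.

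The first experiment held 5 libraries of females in cigarette smoke, 5 of males in smoke, 3 of females in room air and 3 of males in room air, all at 5 months and without surgery. The second held only females in smoke: 5 libraries after ovariectomy (removal of the ovaries) and 5 after sham surgery at 5 months, and 3 after ovariectomy and 3 after sham surgery at 3 months. No group in air had been operated on, so ovariectomy was compared in smoke only. No transgene, allele or age is named in the labels, and the labels do not say whether the libraries of a group came from separate animals. The p-values therefore measure the spread between libraries, which may be technical. Within a group, libraries are numbered as in the labels.

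The aryl hydrocarbon receptor, encoded by Ahr, is a transcription factor that waits in the cytoplasm with heat shock protein 90 and other chaperones. When it binds a ligand, such as a polycyclic aromatic hydrocarbon from smoke or a metabolite of tryptophan, it enters the nucleus, pairs with ARNT and binds DNA at response elements with the core GCGTG. Cyp1a1 and Cyp1b1, monooxygenases that oxidise polycyclic hydrocarbons, are among its best-known target genes. Tiparp, a mono-ADP-ribosyltransferase, and Ahrr, a repressor that competes for ARNT, are also targets and act back on the receptor as brakes. ARNT is shared with other pathways, among them the hypoxia-inducible factors.

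The promoters of 3 target genes are printed because the core of the response element can be read in each. They are the 250 bases before the RefSeq start on GRCm38.p6, 5′ to 3′ along the gene's own strand, with each GCGTG, or CACGC where the core lies on the other strand, in capitals. Cyp1a1 (chr9:57697363-57697612, plus strand), Cyp1b1 (chr17:79715062-79715311, minus strand) and Ahrr (chr13:74292332-74292581, minus strand) read as follows.
Cyp1a1: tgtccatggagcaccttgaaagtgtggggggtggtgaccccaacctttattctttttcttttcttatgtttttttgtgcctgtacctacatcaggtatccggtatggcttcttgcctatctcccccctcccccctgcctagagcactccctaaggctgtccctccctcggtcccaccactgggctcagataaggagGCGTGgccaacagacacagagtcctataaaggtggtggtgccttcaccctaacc
Cyp1b1: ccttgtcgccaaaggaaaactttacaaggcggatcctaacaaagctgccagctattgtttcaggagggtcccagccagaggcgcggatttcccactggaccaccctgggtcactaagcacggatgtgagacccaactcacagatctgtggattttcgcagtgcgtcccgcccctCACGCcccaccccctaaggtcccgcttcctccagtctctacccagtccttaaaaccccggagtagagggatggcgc
Ahrr: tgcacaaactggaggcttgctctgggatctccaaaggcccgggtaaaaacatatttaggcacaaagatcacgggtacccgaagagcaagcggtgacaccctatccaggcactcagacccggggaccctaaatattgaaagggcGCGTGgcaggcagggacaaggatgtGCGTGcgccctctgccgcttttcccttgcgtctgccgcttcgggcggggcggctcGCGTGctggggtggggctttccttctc
Cyp1a1 held 1 core, 50 bases before the start, and Cyp1b1 held 1 on the other strand, 72 bases before it. Ahrr held 3 cores, at 103, 78 and 23 bases, and the last of these was also a match to the longer TNGCGTG, which contains the core. Among the other members, Arnt held 1 core at 25 bases and Tiparp 1 on the other strand at 166 bases. Of 32851 mouse promoters searched over the same 250 bases and both strands, 28.2% held GCGTG and 4.1% held TNGCGTG. A match is a string of letters and not a bound site, and the best-studied elements of Cyp1a1 lie farther upstream than this window. The promoter table matched 5 of the 6 genes, and Ahr is named only.

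Levels are given in TPM, in which each count is set against its gene's length, so that genes can be compared. In order of their median over 32 libraries, the genes were Arnt (41.3 TPM), Tiparp (26.3 TPM), Ahr (22.4 TPM), Cyp1a1 (5.68 TPM), Cyp1b1 (4.74 TPM) and Ahrr (0.124 TPM). The ranges of neighbours in this order overlapped, except between Cyp1b1 and Ahrr, and those of Ahr and Cyp1a1 overlapped through 2 libraries high in Cyp1a1. Ahrr was the lowest of the 6 in every library.

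The libraries held 13790052 to 24497332 counts, and markers of lung tissue were present throughout. The summed level of 5 markers of type 2 alveolar cells, the surfactant makers, ran from 58495 to 92503 TPM. Some libraries stood apart: the summed level of 7 hepatocyte genes such as Alb and Apoa1 had a median of 4.06 TPM and reached 2118 TPM. The third male air library had the highest endothelial sum (2524 TPM, against a median of 1902 TPM in its group and of 859 TPM over all 32). The endothelial sums ran from 961 to 2524 TPM in the first experiment and from 367 to 757 TPM in the second. Whole lung is a mixture, so fewer cells of a type and less RNA per cell cannot be told apart.

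Groups were compared with edgeR's quasi-likelihood test on the counts, in a separate fit for each experiment, and a gene was called at a Benjamini-Hochberg adjusted p under 0.05 over all genes tested. Fold changes are log2 values of the first group over the second. Those of edgeR come from scaled counts and not from TPM. Small ones can therefore differ in size or sign from the ratio of TPM means. In both experiments 5 of the 6 genes were tested, since Ahrr was too low to pass the filter on counts. The number called was 0 in each of 9 comparisons. The share of all tested genes called was 7.7% for smoke against air in females and 10.3% in males. It was 0.189% for females against males in smoke, 0.177% for females against males in air and 0.00611% for the sex by smoke interaction. In the second experiment it was 0% for ovariectomy against sham at 3 months, 1.36% at 5 months, 0% for the surgery by time interaction and 0.13% for 5 against 3 months of smoke. DESeq2 and limma, after the same filter, called 0 of the 5 tested genes as well.

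Before adjustment, p was under 0.05 for Tiparp in smoke against air in both sexes, and for Cyp1a1 in males. It was also under 0.05 for Ahr between sexes in smoke, for Cyp1a1 between sexes in air and for Cyp1a1 in ovariectomy against sham at 3 months. In ovariectomy against sham at 5 months it was under 0.05 for 3 genes, Ahr, Cyp1b1 and Tiparp. It was under 0.05 for 0 genes in both interactions and in 5 against 3 months. Over all tested genes the share with an unadjusted p under 0.05 was 21.3% for smoke in females and 23.2% in males, 7.74% between sexes in smoke and 9.27% in air, and 5.75% for the sex by smoke interaction. It was 9.29% for ovariectomy at 3 months, 15.5% at 5 months and 13.4% for 5 against 3 months. Of all tested genes, 1568 had an unadjusted p under 0.05 for ovariectomy at 3 months, where edgeR called 0 and DESeq2 called 96. For the surgery by time interaction 844 did, edgeR called 0 and DESeq2 called 16.

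**Figure D1:**
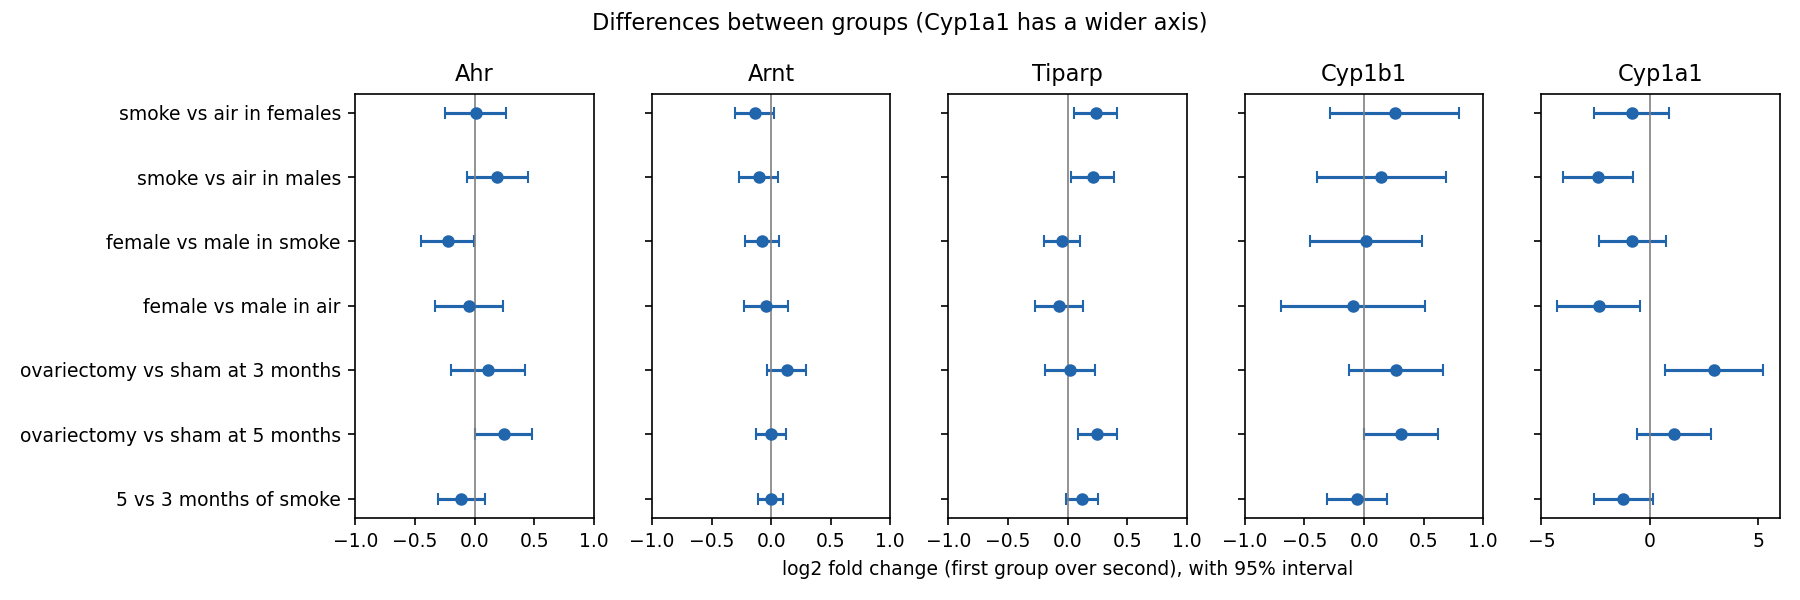
The log2 fold change (x axis) of the 5 tested genes in 7 comparisons (rows), as points with 95% intervals. Ahr, Arnt, Tiparp and Cyp1b1 lie between −0.23 and 0.31, while Cyp1a1, on a wider axis, runs from −2.38 to 2.97.

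Ahr, the receptor gene (chr12:35497974-35535038, minus strand), overlapped between smoke and air in both sexes. It measured 23.8, 19.7, 28.9, 27.5 and 23.5 TPM in female smoke libraries, against 20.1, 31.5 and 20.2 TPM in female air libraries (log2 fold change 0.01, 95% interval −0.25 to 0.26, adjusted p = 0.982 by edgeR). In males it measured 24.4, 31.0, 32.5, 27.9 and 25.2 TPM in smoke, against 21.8, 25.9 and 28.8 TPM in air (0.19, −0.07 to 0.45, adjusted p = 0.392 by edgeR). The difference between the 2 smoke effects did not pass the test (−0.18, adjusted p = 0.945 by edgeR).

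Between sexes in smoke, Ahr averaged 24.7 ± 3.64 TPM in females and 28.2 ± 3.51 TPM in males (SD, n = 5 each), a log2 fold change of −0.23 (SE 0.11, adjusted p = 0.639 by edgeR). In the second experiment it measured 23.8, 23.0, 19.6, 21.1 and 17.6 TPM after ovariectomy at 5 months, against 16.1, 17.0, 20.8, 18.2 and 21.2 TPM after sham surgery (0.24, SE 0.11, adjusted p = 0.306 by edgeR). At 3 months it measured 20.9, 27.4 and 18.7 TPM after ovariectomy and 24.8, 20.8 and 18.8 TPM after sham surgery, also with overlap. Over all groups, Ahr ran from 16.1 to 27.4 TPM (median 20.8) in the second experiment and from 19.7 to 32.5 TPM (median 25.6) in the first. The first experiment also held males and air libraries and no surgery, and the second only females in smoke, 6 of them at 3 months. In females in smoke at 5 months, Ahr averaged 24.7 ± 3.64 TPM without surgery in the first experiment (SD, n = 5). After sham surgery in the second it averaged 18.6 ± 2.27 TPM (SD, n = 5), with overlap. These 2 groups share sex, smoke and time, but experiment and surgery cannot be told apart. The parts of sex, smoke and time in the medians over all groups were not tested.

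Arnt, the partner that the receptor needs in order to bind DNA (chr3:95434388-95497240, plus strand), had the narrowest range of the 6 genes. It lay between 32.1 and 48.8 TPM in all 32 libraries, a 1.52-fold spread. Smoke libraries averaged 37.4 ± 3.16 TPM in females (n = 5), against 39.9 ± 4.89 TPM in air (n = 3; SD; log2 fold change −0.14, 95% interval −0.30 to 0.03). In males they averaged 38.7 ± 3.93 TPM in smoke (n = 5) and 42.7 ± 5.07 TPM in air (n = 3; SD; −0.10, −0.27 to 0.06). After ovariectomy it averaged 41.7 ± 2.64 TPM at 5 months, against 43.8 ± 2.35 TPM after sham surgery (SD, n = 5 each; 0.00, −0.12 to 0.13).

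Ahrr, the repressor gene (chr13:74211118-74292331, minus strand), was close to the limit of detection. It had 0 to 15 counts per library, with a median of 5, and 0 counts in 3 libraries: the third and the fifth after ovariectomy at 5 months and the fourth of male smoke. For a count of 0 a floor of 3 counts was set, which is 0.0647, 0.0732 and 0.0557 TPM in these libraries. The exact two-sided 95% Poisson limit of such a count is 3.69 counts, and both limits cover counting error only. The highest value was 0.419 TPM, in the first sham library at 3 months. Exact two-sided permutation tests over the libraries gave p from 0.204 to 0.8 in 7 comparisons of groups, and 0.562 to 0.8 after adjustment over these. With 3 libraries against 3, such a test cannot go below 0.1.

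Tiparp (chr3:65528410-65555145, plus strand) was the member with the most regular difference in smoke. In females it measured 22.9, 26.1, 22.8, 24.0 and 25.1 TPM in smoke, against 21.1, 20.4 and 18.1 TPM in air, and all 5 smoke libraries lay above all 3 in air. The share of all genes that separated in this way is not given here. The log2 fold change was 0.24 (SE 0.09, 95% interval 0.06 to 0.42, adjusted p = 0.105 by edgeR), which did not pass the threshold. In males it measured 23.8, 25.4, 25.5, 21.4 and 26.3 TPM in smoke and 19.5, 21.7 and 24.2 TPM in air, with overlap (0.21, 0.03 to 0.39, adjusted p = 0.138 by edgeR). The sizes in the 2 sexes were close, and the interaction was 0.03 (−0.23 to 0.28).

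After ovariectomy, Tiparp measured 30.9, 26.4, 31.8, 35.5 and 36.1 TPM at 5 months, against 29.1, 26.3, 28.6, 29.3 and 28.9 TPM after sham surgery. Of the 5 ovariectomy libraries, 4 lay above all 5 sham libraries, and the second overlapped them. The log2 fold change was 0.25 (SE 0.08, adjusted p = 0.113 by edgeR), and leaving out each of the 10 libraries in turn gave 0.20 to 0.31 (adjusted p = 0.0327 to 0.204 by edgeR). Only leaving out that second library, the one that overlapped, brought the adjusted p under 0.05. At 3 months the values were 27.5, 26.5 and 30.6 TPM after ovariectomy and 27.7, 30.8 and 27.8 TPM after sham surgery, which did not separate (0.02, 95% interval −0.19 to 0.23). Over all groups, Tiparp ran from 26.3 to 36.1 TPM (median 29.0) in the second experiment and from 18.1 to 26.3 TPM (median 23.4) in the first, so the ranges met only at their edge. As for Ahr, the experiments differ in surgery, sex, smoke and time as well. In females in smoke at 5 months, Tiparp ran from 22.8 to 26.1 TPM without surgery in the first (mean 24.2, n = 5). After sham surgery in the second it ran from 26.3 to 29.3 TPM (mean 28.4, n = 5), without overlap. Over all genes, the share that separated so is not given here. These 2 groups share sex, smoke and time, but experiment and surgery cannot be told apart.

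**Figure D2:**
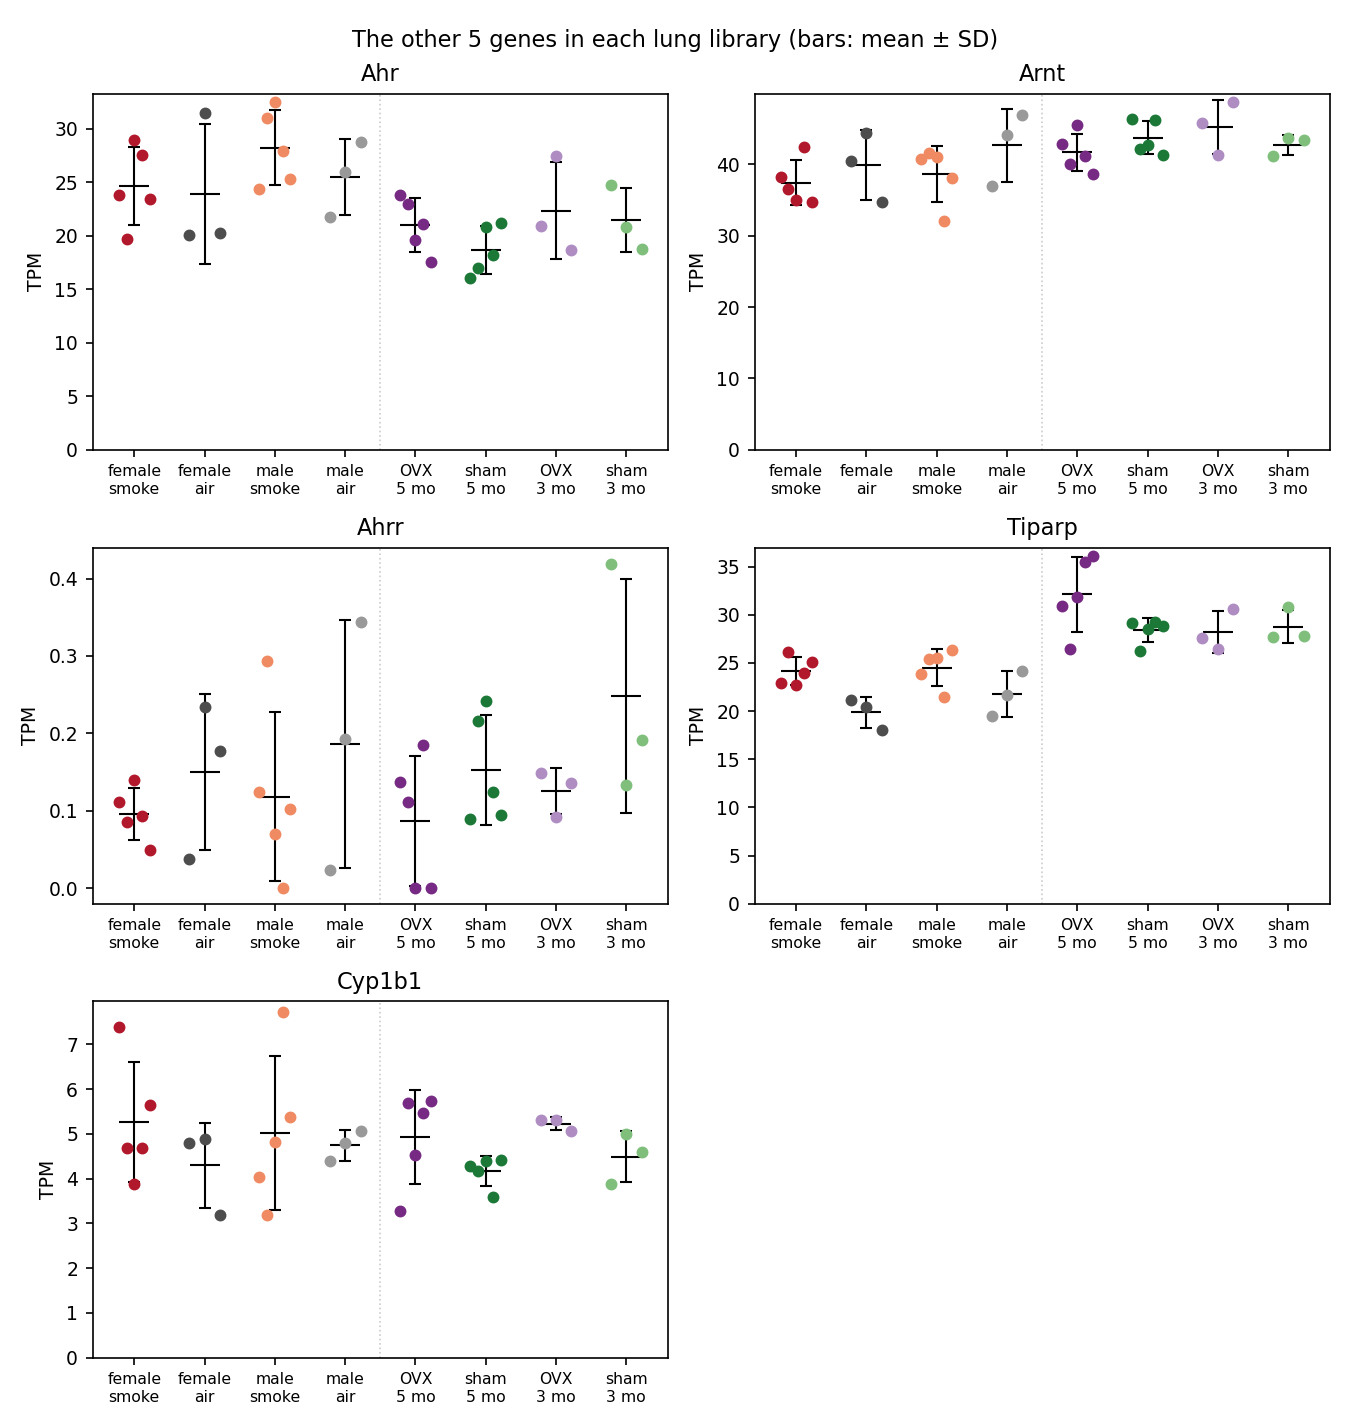
TPM (y axis) of Ahr, Arnt, Ahrr, Tiparp and Cyp1b1 in each library of 8 groups, with mean and SD as bars. OVX is ovariectomy, mo is months, and the dotted line parts the experiments. Tiparp lies higher and Ahr mostly lower in the second experiment, and Ahrr reaches at most 0.419 TPM.

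Cyp1b1 (chr17:79706953-79715041, minus strand), the other hydrocarbon-oxidising target, ran from 3.19 to 7.73 TPM. Female smoke libraries had 7.39, 4.69, 3.89, 4.69 and 5.66 TPM, against 4.80, 4.89 and 3.20 TPM in female air. Male smoke libraries had 4.03, 3.19, 4.81, 7.73 and 5.39 TPM, against 4.39, 4.79 and 5.07 TPM in male air. Smoke and air overlapped in both sexes (log2 fold change 0.26, 95% interval −0.29 to 0.80, in females, and 0.14, −0.40 to 0.69, in males).

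After ovariectomy at 5 months Cyp1b1 had 3.27, 5.70, 4.52, 5.47 and 5.73 TPM, against 4.28, 4.17, 4.40, 3.59 and 4.42 TPM after sham surgery (log2 fold change 0.31, SE 0.15, adjusted p = 0.315 by edgeR). The first ovariectomy library was the lowest of the 10 and the other 4 were above all sham libraries. At 3 months all 3 ovariectomy libraries, at 5.32, 5.31 and 5.06 TPM, lay above the 3 sham libraries, at 3.89, 5.01 and 4.59 TPM. The gap between the nearest values was small, and the log2 fold change of 0.27 did not pass the test (SE 0.19, adjusted p = 0.690 by edgeR). With 3 libraries against 3, a share of 0.1 of all regroupings separates as fully. The share of all genes that separated fully is not given here.

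Cyp1a1 (chr9:57697613-57703822, plus strand) was the gene that varied most. It reached 149 TPM (2889 counts) in the third male air library and 56.1 TPM in the second ovariectomy library at 3 months. In the other 30 libraries it ran from 0.698 to 15.4 TPM, with a median of 5.08 TPM. These 2 libraries thus stood 9.68-fold and 3.65-fold above the highest of the rest, 1 of them from air and 1 from smoke. Over all groups, the median of Cyp1a1 was 3.06 TPM in the second experiment and 7.62 TPM in the first. In females in smoke at 5 months it averaged 5.72 ± 1.35 TPM without surgery in the first (SD, n = 5). After sham surgery in the second it averaged 2.28 ± 1.28 TPM (SD, n = 5), with overlap. Experiment and surgery cannot be told apart between these groups.

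**Figure D3:**
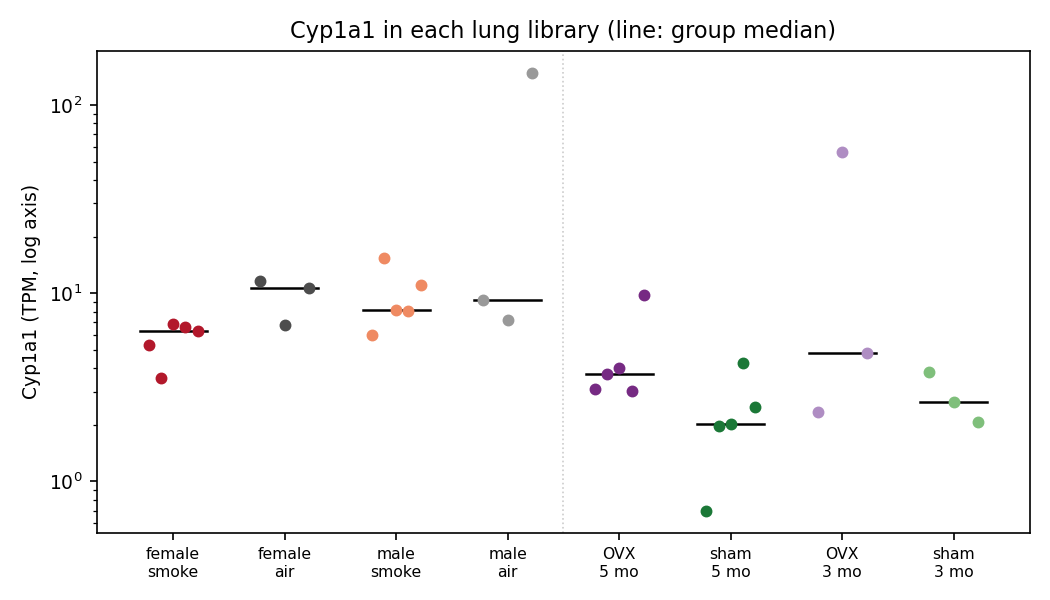
Cyp1a1 in TPM on a log axis in each library of 8 groups, with the group median as a line. OVX is ovariectomy and mo is months. Single libraries of male air (149 TPM) and of ovariectomy at 3 months (56.1 TPM) stand above all others, which end at 15.4 TPM.

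In females Cyp1a1 measured 5.34, 3.53, 6.85, 6.59 and 6.30 TPM in smoke, against 11.6, 6.75 and 10.6 TPM in air. Only 1 smoke library was higher than the lowest air library, and the log2 fold change was −0.83 (SE 0.80, 95% interval −2.56 to 0.91, adjusted p = 0.618 by edgeR). In males it measured 6.01, 15.4, 8.15, 8.02 and 11.1 TPM in smoke, against 9.17, 7.23 and 149 TPM in air. The male log2 fold change was −2.38 (SE 0.75, 95% interval −4.00 to −0.75, adjusted p = 0.0656 by edgeR) and rested on the third air library. Without that library it was 0.23 (adjusted p = 0.779 by edgeR), and without the first or the second air library −2.90 or −2.93 (adjusted p = 0.0245 or 0.0219 by edgeR). Neither sex gave a difference that passed the test with all libraries in the fit.

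The same library set the comparison of sexes in air, where Cyp1a1 was at −2.36 for females against males (SE 0.88, adjusted p = 0.429 by edgeR) and at 0.26 without it. In smoke, females averaged 5.72 ± 1.35 TPM and males 9.73 ± 3.63 TPM (SD, n = 5 each; log2 fold change −0.81, 95% interval −2.36 to 0.74). The summed level of 5 endothelial markers ran from 992 to 1375 TPM in female smoke and from 1335 to 1700 TPM in female air. The male sums were 961 to 1266 TPM in smoke and 1621 to 2524 TPM in air. Of these 5 markers, 4 fell in smoke-exposed females and 5 in males, and their part in the Cyp1a1 values was not tested.

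After ovariectomy at 3 months Cyp1a1 measured 2.33, 56.1 and 4.82 TPM, against 3.81, 2.66 and 2.07 TPM after sham surgery. The log2 fold change was 2.97 (SE 1.03, adjusted p = 0.413 by edgeR), and 0.36 without the second library. At 5 months it measured 3.11, 3.74, 4.03, 3.01 and 9.74 TPM after ovariectomy, against 0.698, 1.96, 2.03, 4.24 and 2.49 TPM after sham surgery. The fourth sham library lay above 4 of the 5 ovariectomy libraries, and the log2 fold change was 1.11 (SE 0.79, 95% interval −0.60 to 2.82, adjusted p = 0.556 by edgeR). For 5 against 3 months it was −1.22 (adjusted p = 0.422 by edgeR), and 0.09 without the second ovariectomy library at 3 months.

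The libraries with the highest Cyp1a1 were also the 2 highest for Nqo1, a quinone reductase that is a target of both the receptor and NRF2. Nqo1 measured 21.4 TPM in the third male air library and 16.6 TPM in the second ovariectomy library at 3 months, against 5.85 to 15.0 TPM (median 9.69) in the other 30. The other 8 enzyme targets on the list gave no such pair of maxima. In the third male air library and the second ovariectomy library at 3 months, Aldh3a1 ranked 5 and 24 of 32, Ugt1a6a 18 and 24, and Ugt1a6b 31 and 25. Cyp2s1 ranked 17 and 29, Xdh 10 and 19, Gsta1 2 and 6, and Gsta2 3 and 11. Nqo1 is thus named after its values were seen. None of the other members had its maximum in these libraries. Ahr was at 28.8 and 27.4 TPM there (the fifth and the eighth highest of 32), Tiparp at 24.2 and 26.5 TPM and Cyp1b1 at 5.07 and 5.31 TPM. Arnt ranked 2 and 17 of 32 in these libraries. Ahrr ranked 2 and 23, with 13 counts in the first of them and 4 in the second.

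Liver transcripts were high in some libraries with high Cyp1a1 and in some with low Cyp1a1, and low in the library with the highest. The 7 hepatocyte genes summed to 2.28 TPM in the third male air library, where Cyp1a1 was highest, and to 856 TPM in the second ovariectomy library at 3 months. The highest hepatocyte sum, 2118 TPM, was in the third ovariectomy library at 3 months, with Cyp1a1 at 4.82 TPM, and the second highest, 1747 TPM, in the fifth ovariectomy library at 5 months, the highest of its group in Cyp1a1 (9.74 TPM). In the first and the second sham libraries at 5 months the sums were 1002 and 999 TPM, with Cyp1a1 at 0.698 and 1.96 TPM. Cyp1a2, a close relative that liver expresses strongly, was at 0 TPM in the third male air library. It was at 1.67 TPM in the second ovariectomy library at 3 months. The third male air library also had the highest sums of endothelial and fibroblast markers, though the fibroblast marker Dcn ranked 30 of 32 there (328 TPM). It had the highest sum of immediate-early genes (1524 TPM, against at most 1088 TPM in the other libraries). Hsp90ab1 (2134 TPM) and Nfe2l2 (202 TPM, the gene of NRF2) were also the highest of the 32 in that library. Its sums of ciliated and adipocyte markers were the lowest, and its erythroid sum was the second highest. The ciliated sum of 567 TPM was mostly Tppp3 (479 TPM, the lowest of the 32). The other ciliated markers were not lowest there: Foxj1 ranked 8, Dnah5 10 and Ccdc39 21 of 32. The part of these in its Cyp1a1 level was not tested.

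**Figure D4:**
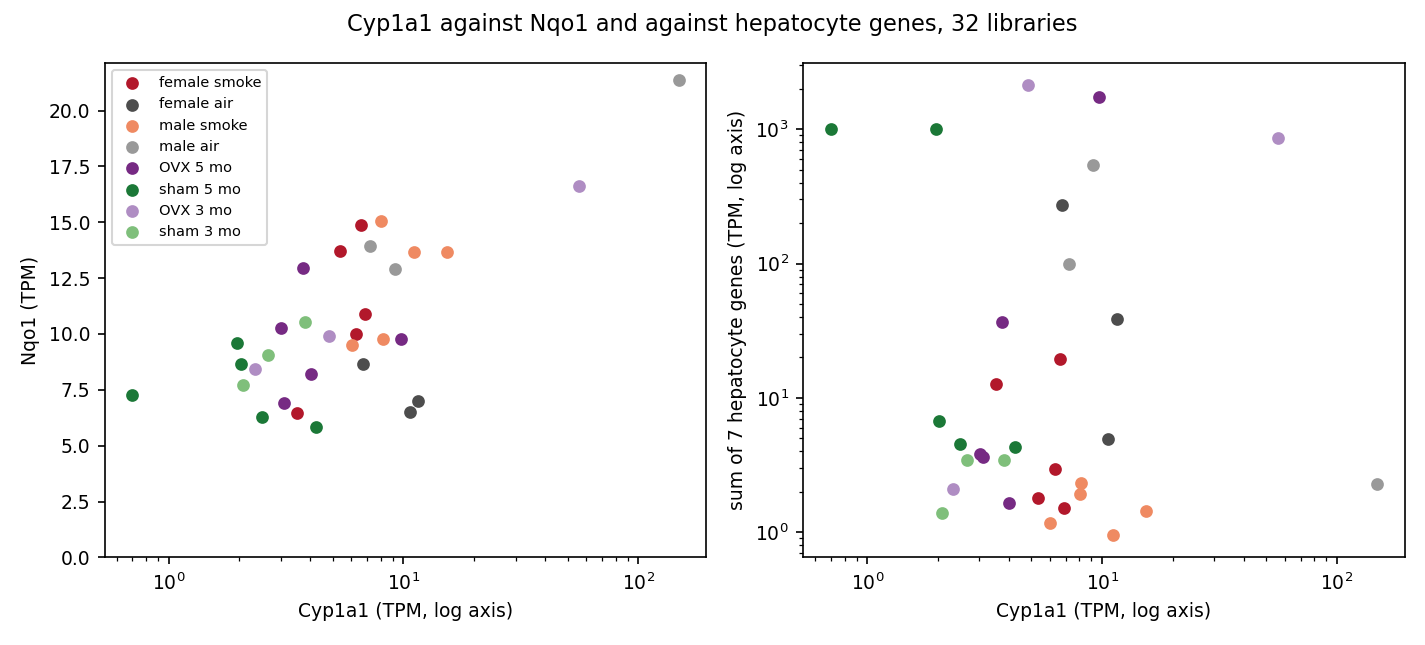
Each point is 1 of 32 libraries, with Cyp1a1 in TPM on a log x axis. Nqo1 in TPM (left) is highest in the 2 libraries highest in Cyp1a1, at 21.4 and 16.6 TPM, while the sum of 7 hepatocyte genes (right, log axis) is 2.28 TPM in the library at 149 TPM of Cyp1a1. OVX is ovariectomy and mo is months.

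Genes around the receptor were followed in 6 lists. Of 9 further enzyme targets (Cyp1a2, Nqo1, Aldh3a1, Ugt1a6a, Ugt1a6b, Gsta1, Gsta2, Cyp2s1 and Xdh), 0 were called in either sex for smoke against air. Their median log2 fold change was −0.10 in females and −0.19 in males, against −0.01 and 0.01 over all genes tested. Nqo1 averaged 11.2 ± 3.31 TPM in female smoke (n = 5) and 7.38 ± 1.14 TPM in female air (n = 3; SD; adjusted p = 0.177 by edgeR). In males it averaged 12.3 ± 2.52 TPM in smoke (n = 5) and 16.1 ± 4.61 TPM in air (n = 3; SD; adjusted p = 0.445 by edgeR). Of the turnover genes 0 of 4 were called in either sex, and of the enzymes of tryptophan breakdown 0 of 7 tested. Of the 6 lists, 0 genes were called in the other 7 comparisons.

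Of the 4 non-enzyme targets reported here (Ereg, Scin, Socs2 and Nfe2l2), 0 were called in either sex. Socs2, a suppressor of cytokine signalling, averaged 53.3 ± 4.89 TPM in female smoke (n = 5) and 60.7 ± 7.98 TPM in female air (n = 3; SD; adjusted p = 0.176 by edgeR). In males it averaged 45.6 ± 5.58 TPM in smoke (n = 5) and 57.1 ± 4.07 TPM in air (n = 3; SD; adjusted p = 0.0725 by edgeR). Of 5 chaperone genes, 0 were called in females and 1 in males: Hsp90ab1, an HSP90 gene, was at 1084 ± 103 TPM in smoke (n = 5) and 1529 ± 527 TPM in air (n = 3; SD; −0.44, adjusted p = 0.0242 by edgeR). This call was lost in 4 of 16 alternative fits. Without the third male air library Hsp90ab1 was at −0.19 (adjusted p = 0.316 by edgeR), and without the second male smoke library at −0.40 (adjusted p = 0.0601 by edgeR). The others were limma (−0.45, adjusted p = 0.0784) and a fit of only the 2 groups compared (−0.44, adjusted p = 0.0810 by edgeR).

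Of 12 tested relatives of the receptor in the bHLH-PAS family and their coactivators, 3 rose and 2 fell in smoke in females, and 3 rose and 3 fell in males. The genes that rose were the clock activators Arntl, Npas2 and Clock. Arntl averaged 24.3 ± 2.69 TPM in female smoke (n = 5) and 7.87 ± 2.76 TPM in female air (n = 3; SD; log2 fold change 1.60, adjusted p = 2.59e-05 by edgeR). In males it averaged 28.0 ± 2.16 TPM in smoke (n = 5) and 12.4 ± 3.72 TPM in air (n = 3; SD; 1.23, adjusted p = 6.64e-05 by edgeR). Npas2 rose by 1.75 and 1.15 on the log2 scale in females and males, and Clock by 0.60 and 0.49. In males Npas2 was at 0.95 and 1.00 without the first or the second air library (adjusted p = 0.0542 and 0.0608 by edgeR), and Clock at 0.35 without the first (adjusted p = 0.0861 by edgeR). All 7 genes of the opposing Per arm of the clock fell in both sexes, and the labels give no hour of collection.

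Hif3a, a hypoxia-inducible factor with inhibitory forms, averaged 0.542 ± 0.0968 TPM in female smoke (n = 5) and 1.57 ± 0.177 TPM in female air (n = 3; SD; log2 fold change −1.57, adjusted p = 0.00161 by edgeR). In males it averaged 0.470 ± 0.144 TPM in smoke (n = 5) and 1.44 ± 0.418 TPM in air (n = 3; SD; −1.57, adjusted p = 0.00134 by edgeR). Epas1, which encodes HIF-2α, an endothelial gene in lung, fell by 0.35 in each sex, a call lost in 8 of 16 alternative fits in females and 6 of 16 in males. In females it was lost once air library 2 or 3, or 1 of the smoke libraries 1, 4 and 5, was left out (adjusted p = 0.0621 to 0.152 by edgeR). In males it was lost by leaving out air library 2 or 3, or 1 of the smoke libraries 1, 2 and 5 (adjusted p = 0.0535 to 0.144 by edgeR). The coactivator Ncoa3 was at −0.40 in males, and at −0.26 without the third air library (adjusted p = 0.268 by edgeR). Its call was also lost without the second air library or any 1 of the 5 smoke libraries (adjusted p = 0.0555 to 0.0997 by edgeR), with the replicate block (−0.36, adjusted p = 0.0593 by edgeR) and with limma (adjusted p = 0.169). Socs2, Epas1 and Ncoa3 are named after their values were seen.

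**Figure D5:**
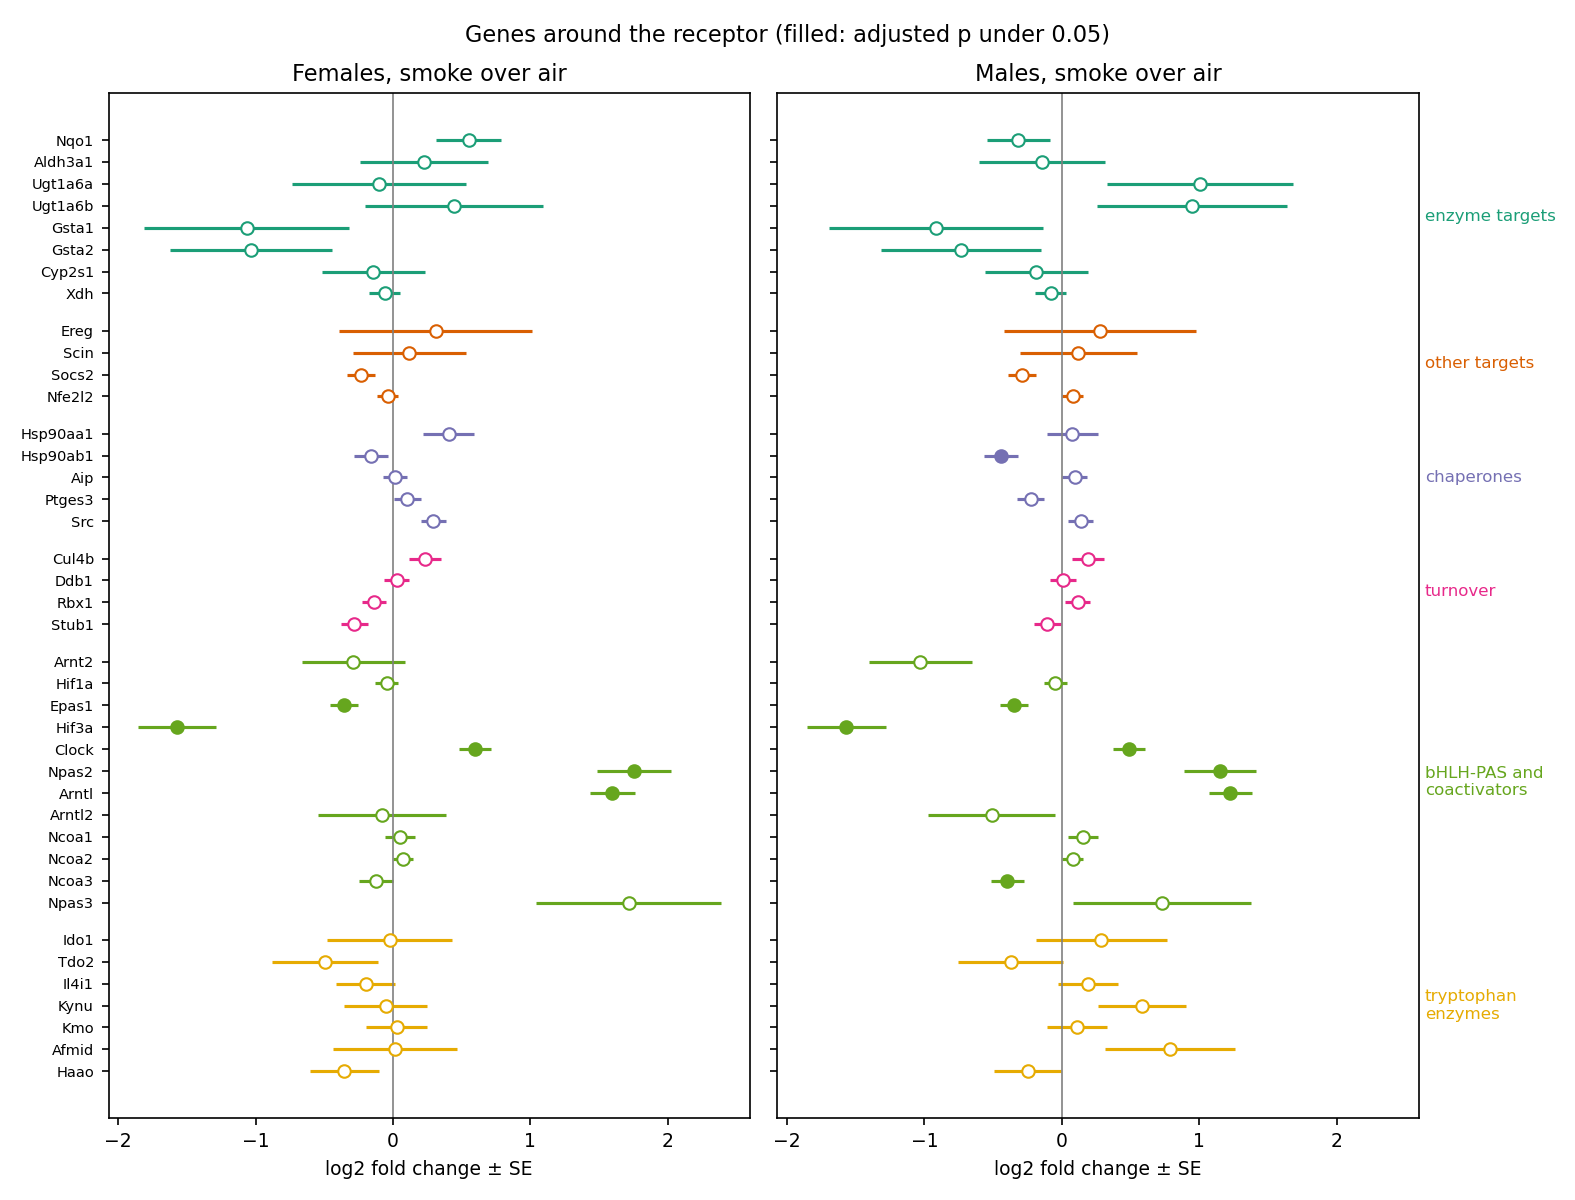
The log2 fold change of smoke over air (x axis, with SE) for genes of the 6 lists in females (left) and males (right), filled where adjusted p was under 0.05. Filled points are Epas1, Hif3a, Clock, Npas2 and Arntl in both sexes, and Hsp90ab1 and Ncoa3 in males. Cyp1a2 is left out because its smoke libraries were all at 0.

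The genes whose levels followed each member most closely were taken by Spearman's rho of log2 CPM (counts scaled to library size) over the 32 libraries, among 13403 genes. The libraries share group, experiment and depth, so these values describe the set and carry no test. Cyp1a1 was most like Serpine2 (rho 0.88, Pearson's r 0.73), Lyve1 (0.87, r 0.81) and Cox4i2 (0.86, r 0.74). Tiparp was most like Tmed7 (0.88), Ogn (0.86) and Chpt1 (0.86), and Ahr most like Prickle1 (0.84), Hhex (0.82) and Ets1 (0.82). The likeness was weaker for Arnt (Gatad2b at 0.68 and Itga9 at 0.63), for Cyp1b1 (Mgst1 at 0.67, Rgs5 at 0.65 and Gpc6 at 0.62) and for Ahrr (Ccdc93 at 0.68, Ints10 at 0.64 and Recql at 0.61). Among the members themselves, Ahr and Cyp1a1 had a rho of 0.67 and Ahr and Tiparp −0.48. Within groups, Pearson's r was 0.37 for the first pair and −0.38 for the second.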

How the data were processed

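The authors deposited whole-number counts per gene for 35275 genes in 32 libraries, and a normalized table of 35186 genes in TPM. That unit was settled from the values: 100% equal the deposited counts divided by gene length and scaled to 1 total per library, within a tolerance of 1e-06. Per the labels' protocols, lung RNA was prepared with Trizol and made into libraries with a NEBNext Ultra 2 kit. Per the submitters' processing notes, FastQC and the builds GRCm38 and mm10 were used. Aligner, counter and strand setting are not given in the sources.

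Counts were fitted in R 4.3.3 with edgeR 4.0.16 (filterByExpr, TMM, robust quasi-likelihood), 1 fit for the 4 groups of each experiment, over 16361 and 16874 genes. Intervals are 95% t intervals of the fit. Alternatives used RLE, other filters, a replicate block, other sets of libraries, limma 3.58.1 on log2(TPM + 1), DESeq2 1.42.0 and each library left out. Replicate numbers did not pair libraries. The fit was tested on simulated data. Plots were drawn with matplotlib 3.10.9.

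Members, lists and tests were chosen with earlier results of these data known. Named genes are the members, up to 4 called genes with the smallest p of each list, and the 3 genes most like each member, among those averaging 1 log2 CPM or more. A list gene and a gene like Arnt that these rules name are not reported here.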

Additional observations from a re-analysis of the deposited data

Results flagged for a closer look

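After ovariectomy at 5 months, the fifth library had 9.74 TPM of Cyp1a1, against 3.01 to 4.03 TPM in the other 4, a gap of 0.848 of the group's range. That library also had the second highest hepatocyte sum of the 32 (1747 TPM) and Cyp1a2 at 5.66 TPM, and the part of these in its Cyp1a1 level was not tested. After sham surgery at 5 months, the second library had 26.3 TPM of Tiparp, below the 28.6 to 29.3 TPM of the other 4, a gap of 0.76 of the range. A total of 24 sets (6 genes in 4 groups of 5 libraries) were looked at in this way, and chance alone sets apart about 1 in 20. Groups of 3 were not looked at, so the highest Cyp1a1 values, in male air and in ovariectomy at 3 months, are not covered.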

How the results depend on the processing

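Over 825 alternatives for 45 log2 fold changes of the members, 767 kept direction and side of the threshold, 4 crossed to a call, 0 lost one and 54, each with an adjusted p over the threshold, changed sign. The number of members called stayed 0 except as follows. In male smoke against air it was 1 (Cyp1a1) with all 32 libraries in 1 fit, and 0 to 1 with a library left out. In ovariectomy against sham at 5 months it was 0 to 1 (Tiparp). The cause was not tested.

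The replicate numbers did not pair libraries (correlations of deviations from −0.43 to 0.33). The replicate block called 0 members in each comparison and turned Ahr in female smoke to −0.0032, Cyp1b1 in male smoke to −0.079, Arnt in ovariectomy at 5 months to -1.1e-05 and Arnt in 5 against 3 months to 0.015. Limma on log2(TPM + 1) turned Arnt to 0.050 (sex by smoke) and −0.069 (ovariectomy at 5 months), Tiparp to −0.029 (ovariectomy at 3 months) and Cyp1b1 to −0.0047 (surgery by time).

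With 1 library left out, log2 fold changes that changed sign ran as follows. Cyp1a1 ran from −2.93 to 0.23 in male smoke, −1.05 to 2.09 for sex by smoke, −2.88 to 0.26 between sexes in air, −2.40 to 0.75 for surgery by time and −1.48 to 0.087 in 5 against 3 months. Ahr ran from −0.086 to 0.17 in female smoke, −0.27 to 0.010 for sex by smoke, −0.23 to 0.045 between sexes in air and −0.094 to 0.23 for ovariectomy at 3 months. Cyp1b1 ran from −0.12 to 0.28 in male smoke, −0.042 to 0.38 for sex by smoke, −0.14 to 0.28 between sexes in smoke, −0.21 to 0.031 between sexes in air and −0.037 to 0.16 for surgery by time. Arnt ran from −0.070 to 0.045 for sex by smoke, −0.028 to 0.026 for ovariectomy at 5 months and −0.026 to 0.025 in 5 against 3 months. Tiparp ran from −0.0078 to 0.10 for sex by smoke and −0.039 to 0.067 for ovariectomy at 3 months.

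Counts of all genes called moved most as follows. In female smoke 1259 became 490 without the third air library, 801 without the second and 789 with limma. In male smoke 1678 became 962 without the third air library and 992 with limma. In ovariectomy at 5 months 230 became 602 with DESeq2 and 39 to 118 without 1 of 7 libraries (sham 1, 3, 4 and 5, ovariectomy 1, 3 and 4). In 5 against 3 months 22 became 490 with DESeq2 and 2 to 125 with a library left out. Between sexes, 31 in smoke and 29 in air became 63 and 128 with DESeq2. The pathway genes were refitted after the data were seen, with 16 alternatives each. Arntl and Hif3a kept their calls in both sexes, as did Npas2 and Clock in females. In males Npas2 was lost without the first or the second air library and Clock without the first or with limma. Groups of 3 libraries and low counts of Ahrr limit what can be detected.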
